A study of Mus musculus with 3 samples.

Results

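The genes described here encode serpins and other protease inhibitors, measured in the 3 germ layers of the gastrulating mouse embryo. They were chosen by gene symbol, with earlier results of these data known. The choice took every symbol that begins with Serpin, Spink, Spint or Itih, every numbered Timp, and Cst3, Cst6, Cstb, Ambp, Tfpi and Tfpi2. The rule found 66 genes with 98 probe sets, of 18193 genes with 34945 probe sets in all, a probe set being a group of short oligonucleotides on the array that reads the same transcript. The samples were endoderm, mesoderm and epiblast of ICR embryos at embryonic day 7.5 (E7.5), with no allele or treatment, each read on 1 Affymetrix mouse expression array. The epiblast sample also held the neuroectoderm and the primitive streak, and the endoderm sample was dissected as a whole from the embryonic region with trypsin and pancreatin. The number of embryos behind each sample is not stated for the arrays. With 1 array per layer no difference has a replicate check and no p-value can be given, and precision is limited by the small number of arrays.

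Proteases cut other proteins, and most are held in check by inhibitors that block their active site. Serpins act as baits: the protease cuts an exposed loop, the serpin snaps into a new fold and the enzyme stays trapped on it. Kunitz (Spint, Tfpi) and Kazal (Spink) domains plug the active site of serine proteases, cystatins that of cysteine cathepsins, and Timps that of metalloproteinases. The inter-alpha-inhibitor family joins a Kunitz protein cut from the Ambp product to heavy chains (Itih) that are passed on to hyaluronan. In the early embryo, the endoderm is known as a secretory and endocytic epithelium, and its visceral part makes many of the plasma proteins that the liver makes later.

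Values are intensities on the linear scale as deposited, and values under the floor, the median over the whole table (80.6), were raised to the floor before folds were taken. A gene was called different where its floored values were at least 2-fold apart, and a fold against a value under the floor is a lower bound, written "at least". Probe sets bind with different strength, so intensities are compared between layers and never between genes. The layers carried their markers: Sox17 read 4169.6 in endoderm against 116 in mesoderm and 51.3 in epiblast, Kdr 2299.8 in mesoderm against 142 in endoderm and 147 in epiblast, and Sox2 3032 in epiblast against 72.4 in endoderm and 129.7 in mesoderm, while Pax6 (181 in endoderm, 92.4 in mesoderm, 121 in epiblast) did not follow its layer. Of the marker lists for other cells, all 7 measured visceral endoderm genes were called higher in endoderm than in both other layers (summed intensity 49947, 612 and 557 in endoderm, mesoderm and epiblast), and so were 4 of 6 definitive endoderm genes (13717, 2081 and 850.2). Of 8 parietal endoderm genes, 5 were called higher in endoderm than in epiblast and 2 higher than in mesoderm (summed 10110.2, 5135 and 2833). None of 6 trophoblast, 6 leukocyte or 4 erythroid genes was called (summed 667, 691 and 739 for trophoblast, 345, 356 and 395 for leukocyte, 159, 173 and 169.8 for erythroid). Of 7 decidual genes 4 were called (summed 1518, 1799 and 851). The decidual prolactins Prl8a2 and Prl3c1 were under the floor on every array. The called genes did not share a pattern, with values again for endoderm, mesoderm and epiblast. Igfbp1 was highest in endoderm (331, 24.1 and 23.2), and Hsd11b2 was highest in mesoderm (838, 1242 and 199). Alpl (99.8, 198 and 206) and Pgr (105, 174 and 270.0) were called lower in endoderm than in epiblast. The part of these cell types in the results below was not tested, and in such bulk samples fewer cells of a type and less RNA per cell cannot be told apart.

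The inhibitors were under the floor more often than other genes, and most of the calls in comparisons with endoderm were higher there, as were most calls over all genes. Of the calls between endoderm and epiblast, 90.0% of those for inhibitors and 78.1% of those for all genes were higher in endoderm, and between endoderm and mesoderm 90.9% and 76.1%. On all 3 arrays 33 of the 66 genes stayed under the floor, where 29.7% of all genes did, and 30.3% were above it in all 3 layers, against 60.2%. Of the remaining genes, Ambp, Serpina10, Serpinb6c, Spink1 and Tfpi2 exceeded the floor in endoderm alone (7.58% of the inhibitors, 2.46% of all genes), Itih4, Serpina1f, Serpini1 and Spink2 in epiblast alone (6.06% against 1.97%), and Serpinb9 in mesoderm alone (1.52% against 0.874%). The epiblast values of those 4 lay close to the floor (85.5 to 103), as did Serpinb6c in endoderm (103), and none of these genes was called. The plot of intensities by layer shows the 33 genes that passed the floor somewhere, grouped by the kind of inhibitor.

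**Figure D1:**
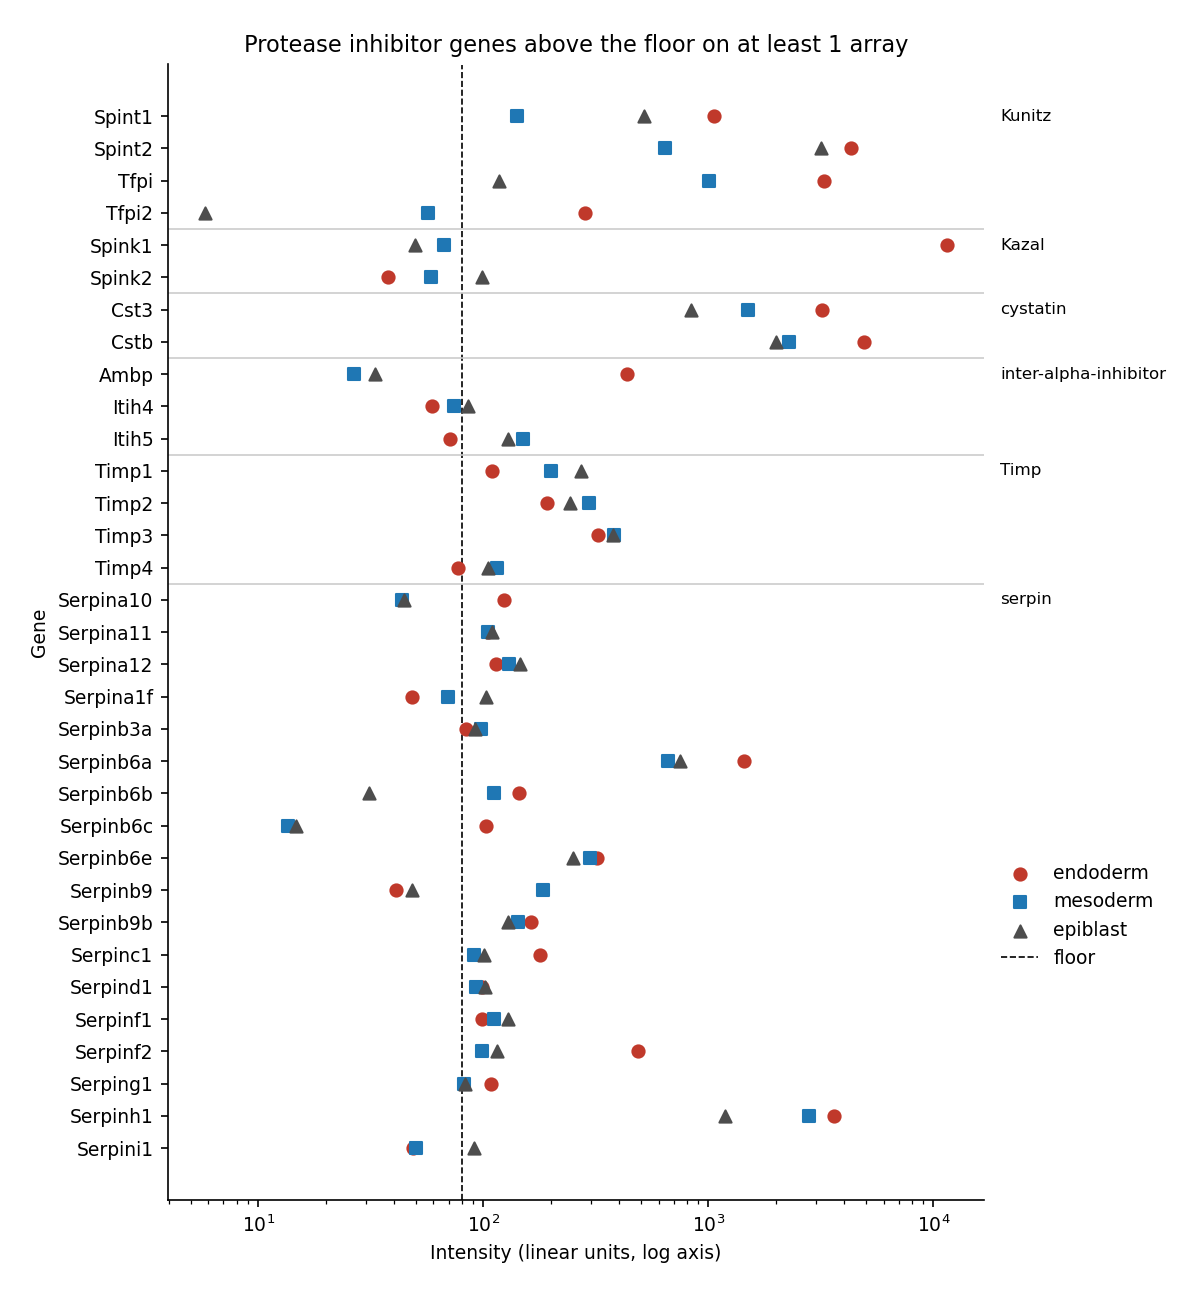
Intensity (linear units on a log axis) of the 33 protease inhibitor genes above the floor on at least 1 array, 1 point per array, grouped by kind of inhibitor; the dashed line is the floor of 80.6. Spink1 stands at 11473 in endoderm with both other layers under the floor, Spint1 and Spint2 are lowest in mesoderm, and Tfpi runs from 3266 in endoderm to 117 in epiblast.

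Against epiblast, 9 inhibitors were called higher in endoderm (13.6%, where 7.95% of all genes were) and 1, Timp1, was called lower (1.52%, against 2.23%). In mesoderm, Serpinb9, Serpinh1 and Tfpi were called higher than in epiblast (4.55%, against 2.04%) and Spint1 and Spint2 lower (3.03%, against 1.72%). Between endoderm and mesoderm, 10 were called higher in endoderm (15.2%, against 7.12%) and Serpinb9 was called lower (1.52%, against 2.24%). Ambp, Cst3, Cstb, Serpinf2, Spink1, Spint1, Tfpi and Tfpi2 were at least 2-fold above both other layers in endoderm, which is 8 of 66 (12.1%, against 5.65%). Serpinb9 held that place in mesoderm (1.52%, against 0.912%) and no inhibitor did in epiblast (0%, against 0.638%). In all, 13 inhibitors were called in some comparison (19.7%, against 13.2%). Of the 8 above both other layers in endoderm, Ambp, Cst3, Cstb, Tfpi and Tfpi2 were named singly in the symbol rule. Only Serpinf2, Spink1 and Spint1 came from its symbol stems. Since the members were chosen with earlier results of these data known, the shares describe this set and test nothing. The shares of 1 to 3 genes are too small a count to set apart from the background. Over all 66 inhibitors the median floored log2 difference was 0.00 in each comparison, as it was over all genes, since 34 to 38 of them sat at the floor in both layers compared.

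**Figure D2:**
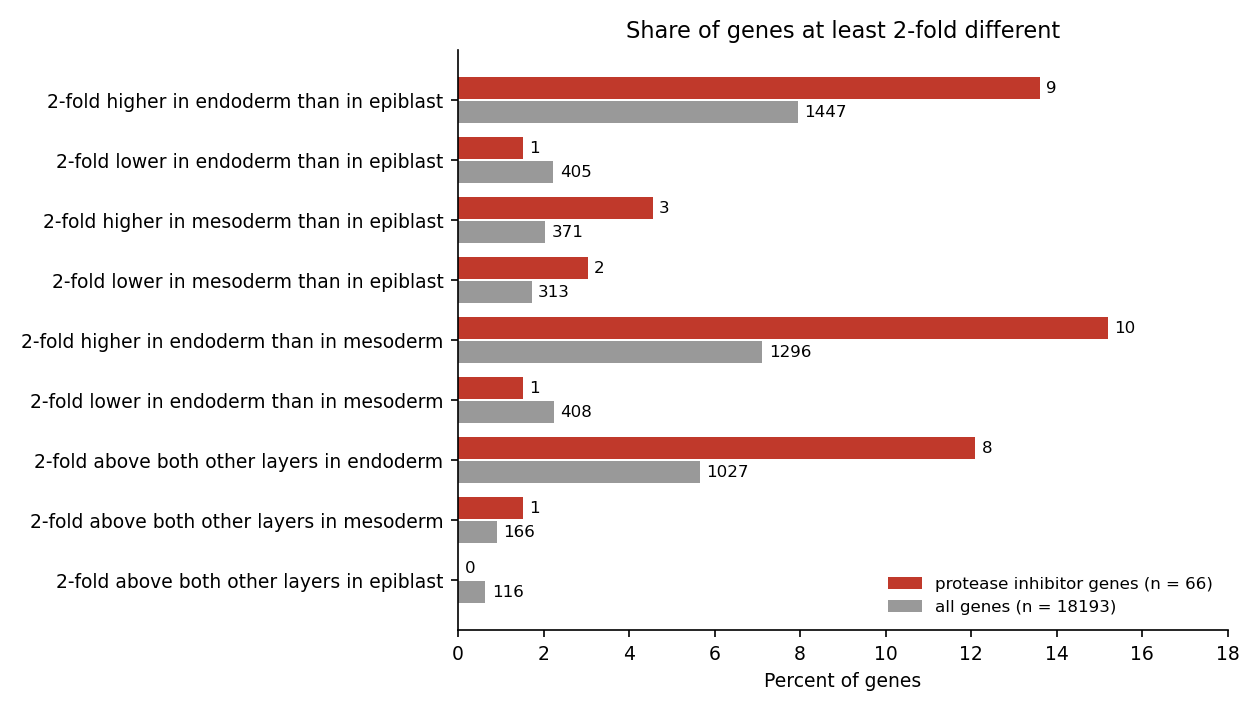
Percent of genes at least 2-fold different in each comparison, for the 66 protease inhibitor genes (red) and all 18193 genes (grey); the number at each bar is the count of genes. The inhibitor share is 13.6% against 7.95% for endoderm above epiblast and 15.2% against 7.12% for endoderm above mesoderm.

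Spint1 and Spint2, the transmembrane Kunitz inhibitors of matriptase and of the activator of hepatocyte growth factor, were the inhibitors called lower in mesoderm than in epiblast. Spint1 read 1063 in endoderm, 141 in mesoderm and 516 in epiblast. Its endoderm value was 2.06-fold above epiblast, and its mesoderm value was 3.67-fold below epiblast and 7.56-fold below endoderm. Spint2 read 4283 in endoderm, 643 in mesoderm and 3150.0 in epiblast, while its second probe set read 4052, 500.5 and 2694. Endoderm and epiblast were thus 1.36-fold apart for Spint2 and not called different, and mesoderm was 4.90-fold below epiblast and 6.66-fold below endoderm. With quantile normalization the endoderm minus epiblast difference of Spint1 was log2 0.74, short of a call, and with the floor at the 75th percentile its mesoderm minus epiblast difference was log2 -0.85, also short of a call. Spint4, a relative, was under the floor on every array.

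The 2 genes with this shared low in mesoderm also had promoters of a similar make-up, and the 250 bases before each start site are printed for that reason (RefSeq, build GRCm38.p6), with capitals for the letters of the SP1-like GC box GGGCGG on either strand.
Spint1 (chr2:119237110-119237359, plus strand): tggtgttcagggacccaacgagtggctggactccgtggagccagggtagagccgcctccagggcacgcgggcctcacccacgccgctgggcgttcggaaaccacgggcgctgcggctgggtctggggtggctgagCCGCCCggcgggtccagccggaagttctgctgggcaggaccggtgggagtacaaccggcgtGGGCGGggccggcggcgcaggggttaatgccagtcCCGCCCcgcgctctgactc
Spint2 (chr7:29281978-29282227, minus strand): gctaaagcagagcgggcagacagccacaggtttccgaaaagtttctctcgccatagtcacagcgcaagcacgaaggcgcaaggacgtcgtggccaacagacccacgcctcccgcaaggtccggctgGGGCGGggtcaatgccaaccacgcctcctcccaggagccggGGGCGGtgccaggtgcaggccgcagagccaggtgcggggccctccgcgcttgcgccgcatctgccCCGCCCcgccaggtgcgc
The Spint1 window held 3 GC boxes, first bases at -115, -54 and -19 from the start site, 26 CpG dinucleotides and 72.8% G and C. The Spint2 window held 3 as well, at -124, -83 and -18, with 24 CpG and 69.6% G and C. Of 32851 mouse promoters of this length, 8.47% had at least 3 GC boxes, 12% had at least 24 CpG, and the medians were 6 CpG and 52.4% G and C. Both cut-offs were taken from these 2 windows, so the shares test nothing. A window of Serpinb6a, which was not called lower in mesoderm than in epiblast, held 2 GC boxes and 20 CpG. The GC box was searched after the sequences had been seen, and such matches are a description of letters, not of binding.

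Their target proteases and substrates were read on the same arrays, and the plot of inhibitors beside proteases places them together. Of 11 membrane-anchored and related serine proteases, 6 were above the floor and 4 were called in some comparison (13.2% of all genes were). Hgfac, the activator of hepatocyte growth factor, was under the floor on every array (40.1 in endoderm, 35.0 in mesoderm, 42.5 in epiblast). St14 (matriptase) read 509.9 in endoderm, 61.5 in mesoderm and 272 in epiblast, so that endoderm was at least 6.32-fold and epiblast at least 3.38-fold above mesoderm. Prss8 (prostasin), which acts with matriptase in epithelia, read 2162, 68.3 and 329, so mesoderm was again the low layer, at least 4.08-fold below epiblast. Hpn (hepsin) at 504, 71.6 and 127 and Tmprss2 at 3740.2, 33.8 and 55.6 were called higher in endoderm than in both other layers, Tmprss2 at least 46.4-fold. Epcam, an epithelial adhesion protein that matriptase cuts, read 4438, 381 and 3456, with mesoderm 11.6-fold below endoderm and 9.06-fold below epiblast. Of the other 7 genes listed for hepatocyte growth factor and matriptase, Met, its receptor, was 2.38-fold higher in endoderm than in mesoderm (463, 195 and 271), and F2r, the thrombin receptor, ran against the rest at 1380.3, 3971 and 2538, 2.88-fold lower in endoderm than in mesoderm. Hgf was under the floor.

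Tfpi and Tfpi2, soluble Kunitz inhibitors, were highest in endoderm, and the 3 layers were each at least 2-fold apart for Tfpi. Tfpi, which blocks tissue factor with factor VIIa and factor Xa at the start of clotting, read 3266 in endoderm, 1002 in mesoderm and 117 in epiblast. Endoderm was 27.9-fold and mesoderm 8.57-fold above epiblast, and endoderm was 3.26-fold above mesoderm. With the mean of the probe sets the mesoderm minus epiblast difference was log2 0.96, short of a call. All 4 Tfpi probe sets had this order but not this size: the second read 1579.5, 437 and 92.2, the others 162, 49.7 and 29.6, and 67.7, 28.1 and 16.8, the last under the floor throughout. Tfpi2, an inhibitor of plasmin and other proteases in the extracellular matrix, read 282, 56.8 and 5.80, with endoderm at least 3.49-fold above either other layer. With the floor at the 75th percentile no difference remained for Tfpi2 (log2 0.00).

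Tfpi was the inhibitor with the second largest difference, and it has 2 start sites in the RefSeq table. Their upstream 250 bases are printed to show that they differ, with capitals for the GATA letters AGATAA or TGATAA and for the GC box, either strand.
Tfpi first (chr2:84474175-84474424, minus strand): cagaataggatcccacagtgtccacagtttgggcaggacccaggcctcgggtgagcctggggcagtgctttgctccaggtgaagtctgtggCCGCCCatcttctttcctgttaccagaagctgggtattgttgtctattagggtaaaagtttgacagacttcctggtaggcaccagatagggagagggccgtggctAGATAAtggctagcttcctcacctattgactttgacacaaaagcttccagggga
Tfpi second (chr2:84476760-84477009, minus strand): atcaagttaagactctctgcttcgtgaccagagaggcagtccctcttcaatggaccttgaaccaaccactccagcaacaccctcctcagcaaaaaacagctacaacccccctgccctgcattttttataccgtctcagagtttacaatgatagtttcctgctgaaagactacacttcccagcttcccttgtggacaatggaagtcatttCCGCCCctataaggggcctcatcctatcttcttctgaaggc
The first held AGATAA at -54 and a GC box at -159, and the second a GC box at -41 with no GATA match. Of all promoters, 16.6% held a GATA match and 32.7% a GC box. A GATA match also occurred at -41 in 1 of 3 Tfpi2 windows. Neither HNF1-like letters (GTTAATNAT, in 0.737% of promoters) nor HNF4-like letters (CAAAGTCCA, in 0.384%) were found in the windows of the 11 called inhibitors that the promoter table holds, of 13.

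The clotting factors that Tfpi and antithrombin meet were partly present. Of 12 coagulation and contact genes 6 were above the floor and 3 were called, all higher in endoderm than in both other layers (5.65% of all genes were). F2 (prothrombin) read 328 in endoderm, 69.4 in mesoderm and 90.9 in epiblast, F5 358, 40.5 and 35.1, and F10 251, 64.3 and 53.2, at least 3.12-fold above both other layers for F10. F7 (factor VII) read 159.6, 62.1 and 71.3, at least 1.98-fold above either other layer and so short of a call. Thbd went against the rest, highest in mesoderm (51.0, 137 and 41.7), and was not called. F3, the tissue factor, was under the floor on all arrays.

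Spink1, the Kazal inhibitor best known from pancreatic juice, had the largest difference of the 66 genes. It read 11473 in endoderm, 67.1 in mesoderm and 49.8 in epiblast, at least 142-fold above either, and endoderm made up 99.0% of its summed intensity. No other Kazal gene followed it. Spink2 read 37.7, 58.4 and 99.1, above the floor in epiblast alone and only 1.23-fold above it, and the other 6 were under the floor on every array. Among them were Spink5, Spink12 and Spinkl, which neighbour Spink1 in the reference gene order. The listed granule, pancreatic and other serine proteases did not share the pattern. Of 16 measured, 9 were above the floor and only Htra1 was called, highest in mesoderm (104, 332 and 113), where 13.2% of all genes were called. Serine proteases on other lists, among them Tmprss2, Prss8, Hpn and F2, were called higher in endoderm than in both other layers.

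**Figure D3:**
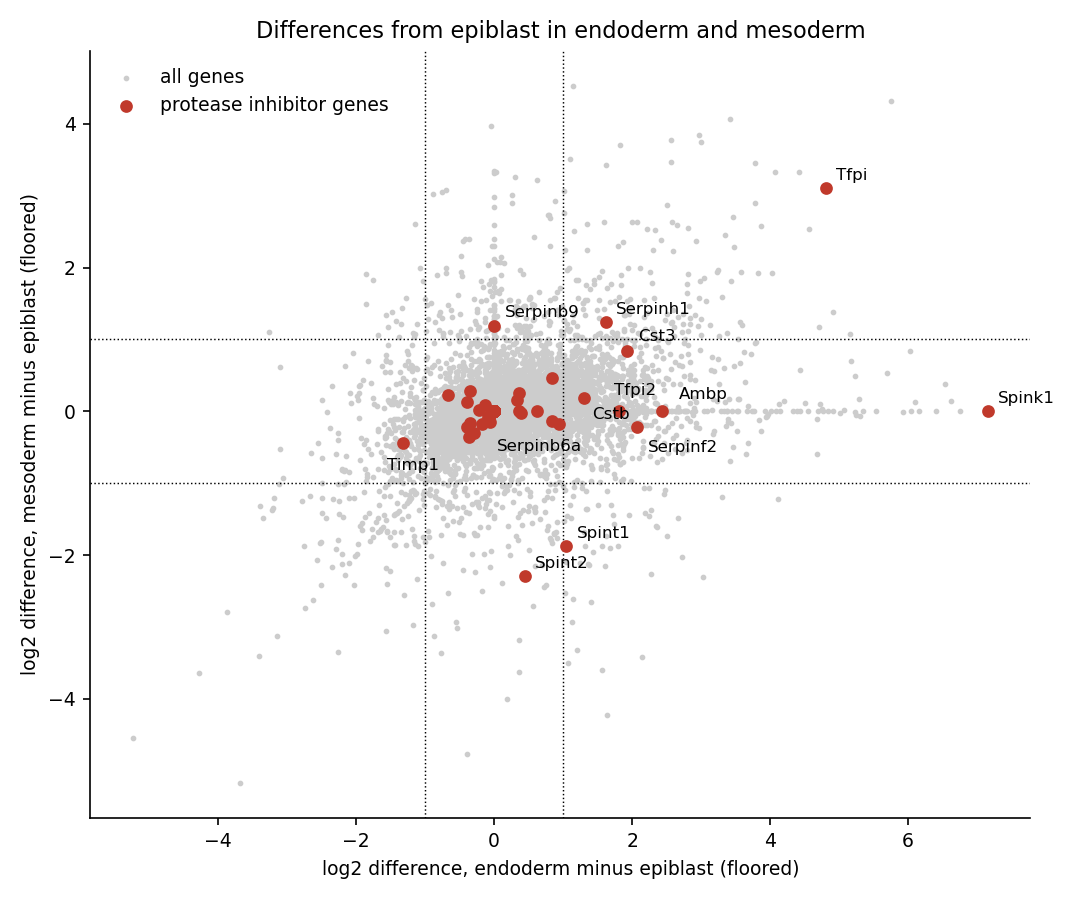
Floored log2 difference from epiblast in endoderm (horizontal axis) and in mesoderm (vertical axis) for all 18193 genes (grey) and the 66 protease inhibitor genes (red), with the 13 called inhibitors named; dotted lines mark 2-fold, and both axes share the epiblast array. Tfpi lies high on both axes (4.80 and 3.10), Spint1 and Spint2 lie below -1 on the mesoderm axis (-1.88 and -2.29), and Spink1 lies at 7.15 and 0.00.

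The cystatins block the papain-like cathepsins, and both that were above the floor were called higher in endoderm. Cst3 (cystatin C, secreted) read 3193 in endoderm, 1496 in mesoderm and 838 in epiblast, 3.81-fold above epiblast and 2.13-fold above mesoderm. Cstb (stefin B, in the cytosol) read 4931, 2278 and 2004, 2.46-fold and 2.16-fold above, and its second probe set gave 2996, 1128 and 1031. The mesoderm values of both were within 1.79-fold of epiblast. The differences from mesoderm were no longer called after quantile normalization (log2 0.87 for Cst3 and 0.93 for Cstb), and those from epiblast were. Cst6 was under the floor.

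Several of their target enzymes were also called higher in endoderm. Of 11 cysteine cathepsins and legumain genes 9 were above the floor, and 6 were called higher in endoderm than in both other layers, as 5.65% of all genes were. Ctsh (cathepsin H) read 7902 in endoderm, 89.4 in mesoderm and 54.1 in epiblast, at least 98.0-fold above epiblast and 88.3-fold above mesoderm. Lgmn (legumain, which cystatin C also inhibits) read 5684, 256 and 158, Ctsc 8636, 838 and 743, and Ctsz 6312, 952 and 1243. Ctsb at 6664, 1381 and 1465 and Ctsl at 9473, 2995 and 2509.9 completed the group, 4.55-fold and 3.77-fold above epiblast.

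**Figure D4:**
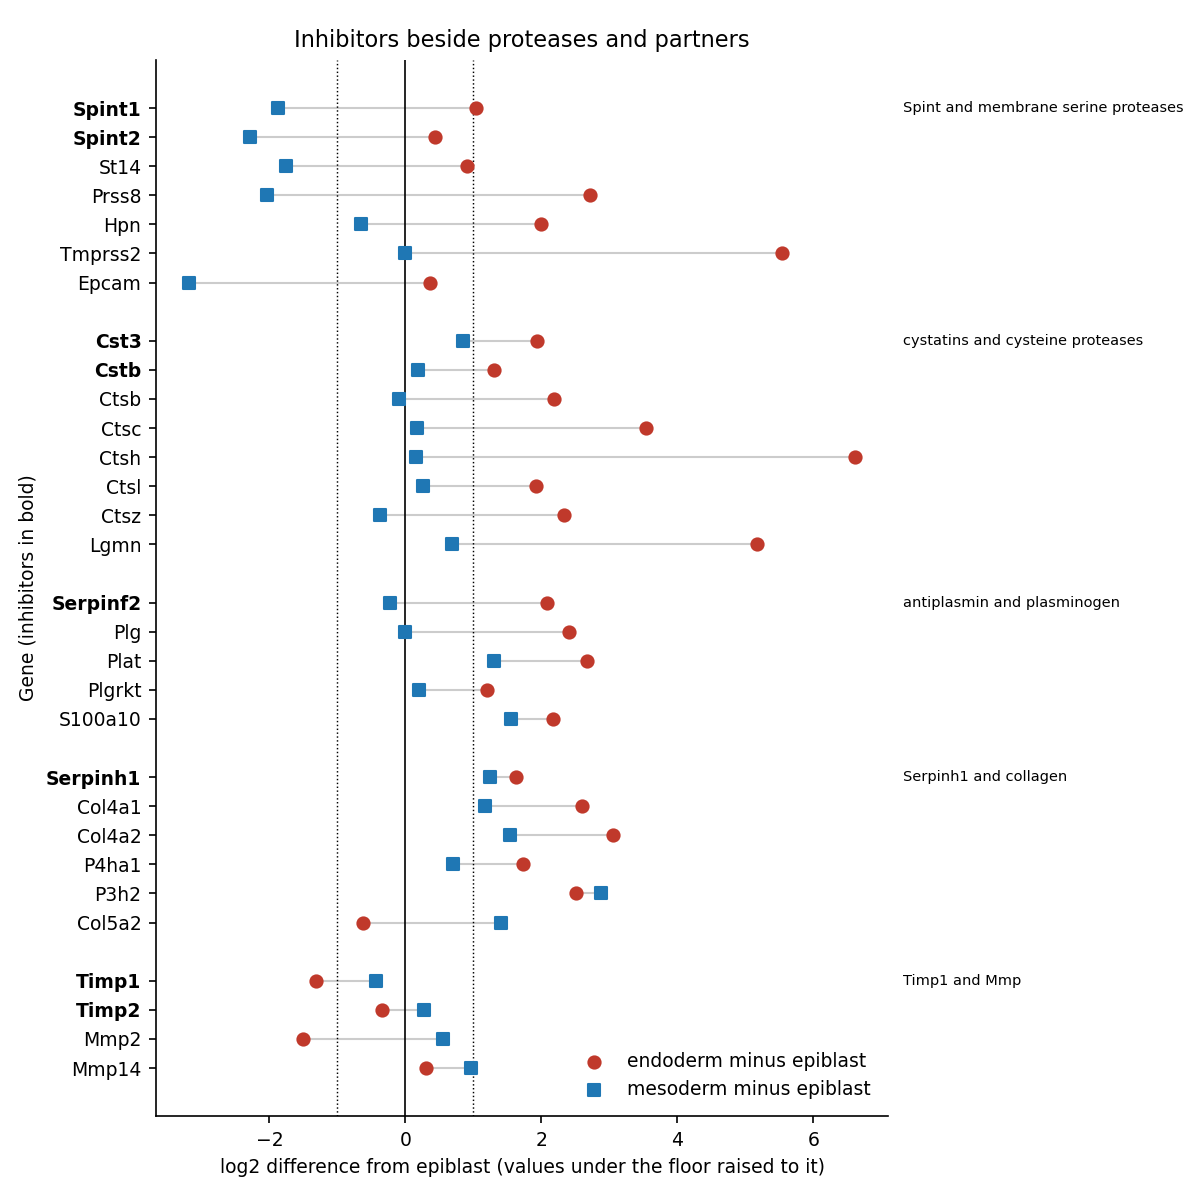
Floored log2 difference from epiblast in endoderm (red circles) and mesoderm (blue squares) for called and level inhibitors (bold) and for proteases and partners, in 5 groups; the solid line marks 0 and the dotted lines 2-fold. Spint1, Spint2, St14, Prss8 and Epcam share a low mesoderm value. The plotted cystatins, the 6 called cysteine proteases and Serpinf2 with the 4 plasminogen genes plotted beside it lie past 2-fold in endoderm. Ctsf, Ctsk, Ctso, Ctss, Ctsw, Anxa2, Plau and Plaur, from the same lists, did not pass 2-fold there and are not plotted.

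Of the inter-alpha-inhibitor family, the light chain gene was called and no heavy chain gene was. Ambp, which encodes bikunin together with alpha-1-microglobulin, read 436 in endoderm, 26.6 in mesoderm and 33.0 in epiblast, at least 5.41-fold above either, with 88.0% of the summed intensity in endoderm, and with the floor at the 75th percentile the difference was log2 0.61. Itih1, Itih2 and Itih3, the chains that bikunin carries in plasma, were under the floor on all arrays. Itih4 read 59.0, 74.2 and 85.5, above the floor in epiblast alone and there by 1.06-fold. Itih5 read 71.4, 150.2 and 129, with mesoderm at least 1.86-fold above endoderm and so short of a call. Of 9 hyaluronan genes 3 were called in some comparison (13.2% of all genes were), and these were highest in mesoderm. The synthase Has2 read 143 in endoderm, 429 in mesoderm and 199 in epiblast. The proteoglycan Vcan read 109.7, 684 and 152, and the receptor Cd44 83.3, 601 and 344.

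The secreted serpins of plasma were low or level in most cases, and Serpinf2 was the exception. Serpinf2 (alpha-2-antiplasmin), the main inhibitor of plasmin, read 487 in endoderm, 98.9 in mesoderm and 115 in epiblast, 4.22-fold above epiblast and 4.92-fold above mesoderm, though log2 0.77 with the floor at the 75th percentile. Its neighbour Serpinf1, an inhibitor of vessel growth with no known protease target, read 98.4, 111 and 129, within 1.31-fold. The upstream 250 bases of Serpinf2 are printed because they alone among the printed windows hold both a GATA match and FOXA-like letters (TGTTTAC or TATTTAC), shown in capitals.
Serpinf2 (chr11:75439502-75439751, minus strand): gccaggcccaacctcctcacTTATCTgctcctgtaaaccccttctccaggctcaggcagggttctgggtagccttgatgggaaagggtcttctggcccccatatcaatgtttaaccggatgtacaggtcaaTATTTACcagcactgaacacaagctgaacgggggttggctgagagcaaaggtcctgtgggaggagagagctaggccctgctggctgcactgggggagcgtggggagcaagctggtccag
The GATA letters lie at -230, on the opposite strand as TTATCT, and the FOXA-like letters TATTTAC at -119. FOXA-like letters occurred in 5.76% of all promoters. No motif of the 5 searched was found in the Ambp window.

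Plasminogen and its activators were read beside Serpinf2. Of 7 genes, 6 were above the floor and 5 were called in some comparison (13.2% of all genes were). Plg (plasminogen) read 426 in endoderm, 69.1 in mesoderm and 74.6 in epiblast, so that endoderm was at least 5.29-fold above either other layer, and Plat, the tissue activator, 513, 199 and 54.9, at least 6.36-fold above epiblast in endoderm and at least 2.47-fold in mesoderm. S100a10, part of a plasminogen receptor, was 4.51-fold above epiblast in endoderm and 2.92-fold in mesoderm (3503, 2271 and 778), and the receptor Plgrkt was 2.30-fold above epiblast in endoderm (592, 294 and 257). Anxa2, the partner of S100a10, went another way and was highest in mesoderm (217, 419 and 192). Plaur, the urokinase receptor, was level (451, 389 and 457), and Plau, urokinase itself, was under the floor.

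Antithrombin, Serpinc1, lay just outside the limit. It read 179 in endoderm, 91.1 in mesoderm and 100.5 in epiblast, 1.96-fold above mesoderm, while Serpinb6a at 2.18-fold and Serpinb9 at 2.28-fold lay just inside. Heparin cofactor II (Serpind1: 98.4, 92.3 and 102) and the complement C1 inhibitor (Serping1: 108, 81.6 and 82.5) were level. Of the 14 clade A serpins, the family of alpha-1-antitrypsin, 10 were under the floor and none was called. The 4 above it were Serpina11, level at 105, 105 and 109, Serpina12 at 114, 130.2 and 146, Serpina10 (the protein Z-dependent inhibitor) at 124, 43.6 and 44.6, and Serpina1f at 48.1, 69.8 and 103. None of the 12 measured members of the clade A gene cluster was called, of 23 the reference table lists there. The alpha-1-antitrypsin copies are close in sequence, and 3 probe sets that several inhibitors share, none above 30.5, were left out.

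Clade B serpins stay mostly inside the cell, and 7 of 18 were above the floor. Serpinb6a, a broad inhibitor of trypsin-like proteases and cathepsin G, read 1434 in endoderm, 659 in mesoderm and 746 in epiblast. Endoderm was 2.18-fold above mesoderm and 1.92-fold above epiblast, which is short of the limit, and after quantile normalization the difference from mesoderm was short of it too (log2 0.88). Serpinb9, the inhibitor of granzyme B, was the inhibitor with a mesoderm high: it read 40.8, 184 and 48.2, at least 2.28-fold above both others. That rests on 1 probe set, since the second Serpinb9 probe set (23.0, 49.7 and 29.0) was highest in mesoderm but under the floor, and with the mean of both the mesoderm minus epiblast difference was log2 0.25. Gzma and Gzmb, the granzymes, were under the floor in all layers. Serpinb6a and Serpinb9 lie in a cluster of which 11 genes were measured (of 16) and 6 were above the floor, and 2 were called. Of the others above the floor, Serpinb6b read 144, 111 and 31.1, Serpinb6c 103, 13.6 and 14.7, Serpinb6e 319.9, 297 and 249, and Serpinb9b 162, 143 and 128. In the other Serpinb cluster, 1 gene of 7 measured, Serpinb3a (83.6, 97.5 and 92.0), was above the floor. These clusters hold near-identical copies, so a probe set may also read a relative, which was not tested.

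Serpinh1 (Hsp47) is a serpin that inhibits no protease and serves as a collagen chaperone in the endoplasmic reticulum. It was called higher than in epiblast in both endoderm and mesoderm: it read 3632 in endoderm, 2789 in mesoderm and 1183 in epiblast, which is 3.07-fold and 2.36-fold, and endoderm and mesoderm were 1.30-fold apart. The second probe set gave 3633, 2719 and 1099.5. Of 19 genes of collagen chains and their maturation 18 were above the floor and 9 were called in some comparison (13.2% of all genes were). Col4a1, a basement membrane collagen, read 4784, 1775 and 786, and Col4a2 2663, 926 and 318, so that both were above epiblast in both layers (2.26-fold or more) as Serpinh1 was. P3h2, a prolyl hydroxylase of collagen IV, read 678, 868 and 119, and P4ha1 2844, 1389 and 857. Col5a2, a fibrillar collagen, and P4ha2 went against them, both called lower in endoderm than in mesoderm (2.24% of all genes were). Col5a2 read 57.5, 329.5 and 125, and P4ha2 129, 336 and 222. Of the clade I serpins of neurons and pancreas, Serpini1 read 48.6, 50.1 and 90.8 and Serpini2 was under the floor.

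**Figure D5:**
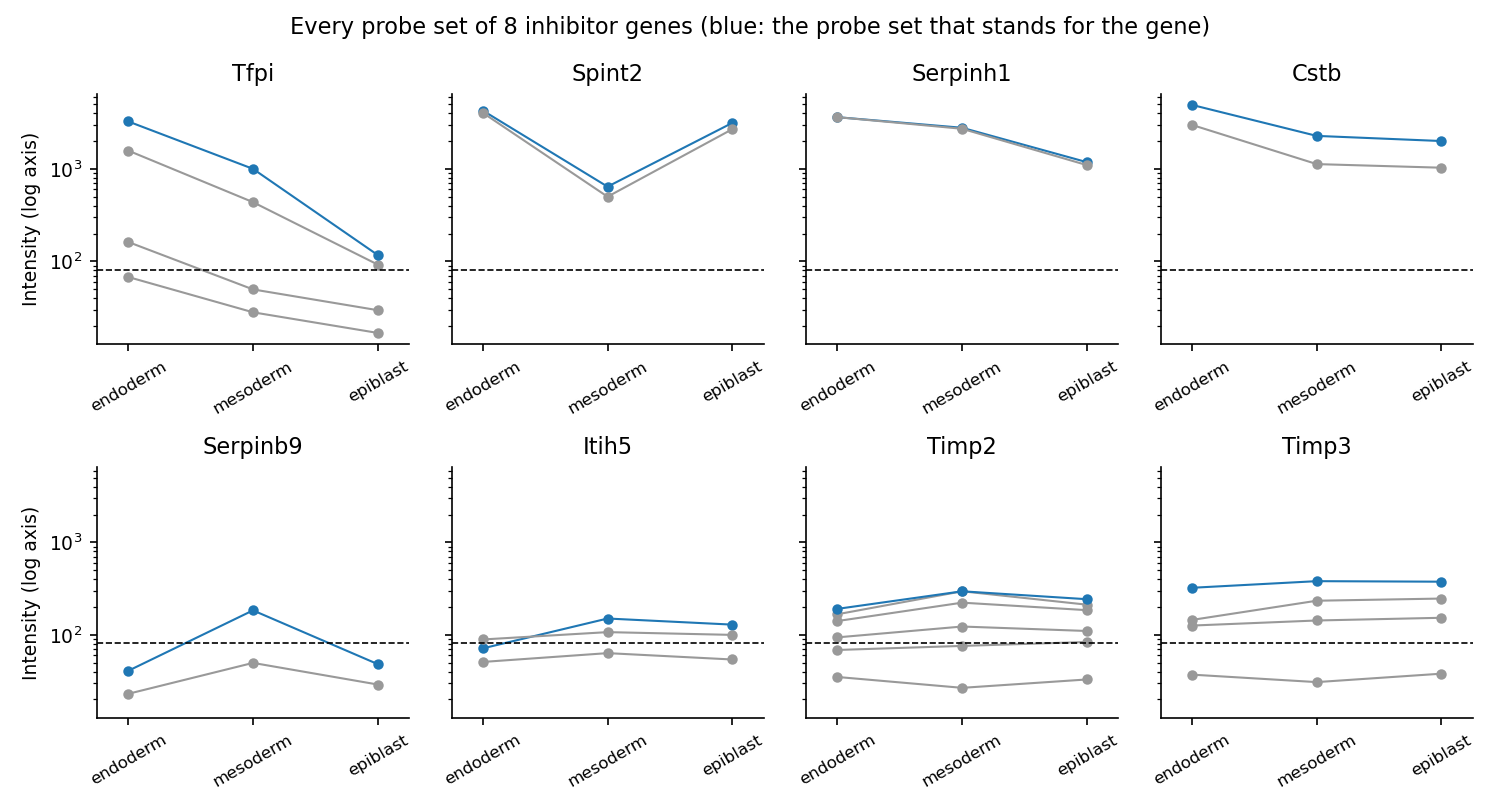
Intensity (log axis) of every probe set of 8 inhibitor genes that have several, by layer, with the probe set that stands for the gene in blue, the others in grey and the floor dashed. The probe sets of Tfpi, Spint2, Serpinh1 and Cstb share their order of layers, while the second Serpinb9 probe set and 1 dim probe set each of Itih5, Timp2 and Timp3 lie under the floor.

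All 4 Timps were above the floor, and 1 was called. Endoderm was the lowest layer of each, though not by 2-fold for the other 3. Timp1 was the inhibitor called lower in endoderm: it read 109 in endoderm, 200.2 in mesoderm and 272 in epiblast, 2.49-fold below epiblast and 1.83-fold below mesoderm, the latter under the limit, and with the floor at the 75th percentile no difference remained (log2 0.00). Timp2 read 191, 296 and 243 and Timp4 76.9, 115 and 105. Timp3, which binds to the matrix, was level at 323, 381 and 376. Among 16 measured matrix metalloproteinases 9 were above the floor and Mmp2 alone was called, where 13.2% of all genes were called in some comparison. Mmp2, whose activation Timp2 takes part in, read 197, 822 and 561, with endoderm 4.18-fold below mesoderm and 2.85-fold below epiblast. Mmp14, its membrane-bound activator, read 852, 1339 and 686. Of 23 ADAM and ADAMTS proteases, targets of Timp3 and others, 15 were above the floor and 8 called (13.2% of all genes were). Among the called ones, Adam10 (1306, 853 and 419.9) and Adam17 (878, 558 and 396) were higher in endoderm than in epiblast. Adam19 (679, 1272 and 325) and Adamts20 (34.8, 196 and 45.8) were highest in mesoderm.

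With 1 array per layer, the probe sets of a gene give the only measure of spread. They read the same RNA on the same array, so error between samples or arrays is not part of it. Over Cstb, Itih5, Serpinh1, Spint2, Tfpi, Timp2 and Timp3, with 19 probe sets above the floor, the pooled SD of the log2 difference was 0.85 between endoderm and epiblast, 0.67 between mesoderm and epiblast and 0.32 between endoderm and mesoderm. The same SDs over 5536 genes were 0.38, 0.25 and 0.36. In both comparisons with epiblast the SD over the 7 inhibitors rested mostly on Tfpi. For Tfpi the endoderm minus epiblast values were 4.80, 4.10 and at least 1.01 from its 3 probe sets above the floor. The last of these was limited by the floor. The 2 probe sets of Cstb (1.30 and 1.54), Serpinh1 (1.62 and 1.72) and Spint2 (0.44 and 0.59) lay closer together. Transcript ends can truly differ, so this is no replicate error. Some calls lay near 2-fold, such as Spint1 in endoderm against epiblast (log2 1.04), Cst3 and Cstb in endoderm against mesoderm (1.09 and 1.11) and Serpinb6a (1.12). They exceed the limit by less than the spread over the 5536 genes.

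Inhibitors that the symbol rule leaves out were called in both directions. Of 37 measured, 18 were above the floor and 6 were called in some comparison (13.2% of all genes were). Against epiblast, 3 were higher in endoderm (7.95% of all genes were) and 2 lower (2.23%). In endoderm 1 was above both other layers (5.65% of all genes were), and in epiblast 2 were (0.638%). These counts are too small to set apart from the shares over all genes. Reck, a membrane inhibitor of metalloproteinases, read 997 in endoderm, 482 in mesoderm and 218 in epiblast. Spock2 (75.8, 58.2 and 218), a proteoglycan, was at least 2.70-fold higher in epiblast than in either layer. Wfdc2, a whey acidic protein inhibitor of epithelia, was highest in epiblast (620.5, 343 and 1818), 5.31-fold above mesoderm, and Pcsk1n, the inhibitor of a prohormone convertase, read 172, 79.2 and 326.

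Of 10 measured receptors and cofactors for the clearance of inhibitor-protease complexes, 8 were called in some comparison, where 13.2% of all genes were. Lrp2 (megalin) read 1037 in endoderm, 96.5 in mesoderm and 352 in epiblast, Lrpap1, the chaperone of this receptor family, 4739, 972 and 1101, and Sdc4, a heparan sulphate proteoglycan, 1905, 285 and 445. All 3 were 2.94-fold or more above both other layers in endoderm. In all, 5 of the 10 were called above both other layers there (5.65% of all genes were). Sdc1 went the other way (866, 2008 and 2123). Lrp8 was called lower in endoderm than in epiblast (75.4, 139 and 189.8), and Vldlr lower in endoderm than in mesoderm (129.9, 330.5 and 258). Gpc3, a glypican that binds Tfpi, read 6026, 2714 and 1061, in the same order of layers as Tfpi. Lrp1, the main receptor for serpin complexes, was within 1.84-fold (368, 481 and 262).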

How the data were processed

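The 3 samples were 1 endoderm, 1 mesoderm and 1 epiblast array, grouped by their labelled tissue. Per the labels and the methods, 100 ng of DNase-treated total RNA was labelled per array, and the authors used Robust Multiarray Average (RMA) and the affy package. Deposited values were linear intensities (array medians 79.9, 79.9 and 82.2, upper quartiles 319, 276 and 269). RMA usually gives log2 values with like distributions, so the exact summary step is unknown, which could alter differences between dim probe sets.

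Of 45037 probe sets, 34945 had 1 gene symbol, 932 had several and 9160 were unnamed in the annotation used. Entrez identifiers of 34741 matched a RefSeq table and 0 symbols changed. A gene was represented by its probe set of highest mean log2. Values under the median of all values (80.6, log2 6.33) were raised to it, log2 values were subtracted between layers and at least 2-fold was counted, over all 18193 genes with no filter on low values. Significance Analysis of Microarrays, which the methods name, needs replicates and was not run. Python 3.11.15, pandas 2.3.3, numpy 2.4.6 and, for alternative normalizations, limma 3.58.1 in R 4.3.3 were used. The counting was tested on simulated data without noise, with folds planted only in genes well above the floor, so calls near the floor were not tested. Members, gene lists and motifs were chosen with earlier results of these data known. Inhibitors 2-fold different between any layers are named, with up to 2 level ones per class and up to 4 genes of other lists with the largest range, or against it. Genes outside that rule (Pax6, F3, Hgfac, Plau, Plaur, Hgf, the granzymes, Mmp14, Adam17, Lrp1, Igfbp1, Hsd11b2, Pgr, Alpl and the remaining inhibitors above the floor) were named after their values were seen. Protein sequences were not used here. Alternatives covered normalization, floor, fold limit, pseudocount and choice of probe set.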

Additional observations from a re-analysis of the deposited data

How the results depend on the processing

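Of 99 recomputed counts 78 stayed within 1.5 times the count reported and 21 did not. Of the single differences 325 kept their side of the 2-fold limit, 24 fell under it and 2 passed it. Ambp, Cst3, Serpinb6a, Serpinf2, Spink1, Spint1, Tfpi2 and Timp1 have 1 probe set each. Settings that change only the choice of probe set could not move these genes, and such outcomes are part of the 325. Among called differences 0 reversed, and direction was not compared for those never called. Inhibitors above both other layers in endoderm numbered 5 in place of 8 under quantile normalization, centring on 11 housekeeping genes and a 3-fold limit (without Cst3, Cstb and Spint1 each time), and 5 with the floor at the 75th percentile (without Ambp, Serpinf2 and Tfpi2). With that floor there were also 0 lower in endoderm than in epiblast, 1 lower in mesoderm than in epiblast (without Spint1), 0 lower in endoderm than in mesoderm and 0 above both in mesoderm. A 3-fold limit likewise left 0, 0 and 0 for the first and the last 2 of these, and 1 higher in mesoderm than in epiblast (Tfpi). With no floor, 3 were lower in endoderm than in epiblast (Serpina1f and Spink2 added), 5 higher in mesoderm than in epiblast (Serpinb6b and Tfpi2 added) and 2 lower in endoderm than in mesoderm (Itih5 added). A 1.5-fold limit gave 2 lower in endoderm than in epiblast and 4 lower than in mesoderm, and centring gave 2 lower than in mesoderm (Timp1 added). With the mean of probe sets, 1 was higher in mesoderm than in epiblast (Serpinb9 and Tfpi lost), 0 lower in endoderm than in mesoderm and 0 above both in mesoderm. The share of calls that were higher in endoderm than in epiblast over all genes was 78.1%, 64.4% after quantile normalization and 63.4% after centring, and for inhibitors 90.0%, 88.9% and 88.9%; against mesoderm these were 76.1%, 65.6% and 59.7%, and 90.9%, 87.5% and 77.8%. No paired analysis was possible because there was 1 array per layer. The cause of these shifts was not tested. Dim genes are limited by the floor, since no background measure was available.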
